A study of Glycine max with 46 samples.

Results

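The 100 genes described here were soybean transcripts with a higher mean level at early and mid desiccation than at any later stage. The later stages were late desiccation, the dry seed and imbibition. These genes were chosen on their measured levels by a ratio of stage means, which takes no account of the spread between replicates. Runs were averaged within each biological replicate and replicates within each stage, the IDs from Glyma13g01791 to Glyma13g12220 were left out, and genes with a mean between 200 and 20000 normalized counts at both early and mid desiccation were kept. These 10787 genes, out of 54175 in the table, are called genes within the level limits below. They were ranked by the lower of the early and mid desiccation means divided by the highest of the 5 later means, with 10 added to each, and the first 100 were taken.

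Seeds of the soybean (Glycine max) genotype Williams 82 were sequenced at 7 stages: early, mid and late desiccation, the mature dry seed, and 3, 16 and 27 h after imbibition, the uptake of water that starts germination. All stages shared this genotype and were grown in long days of 16 h light and 8 h dark at 22 °C, and no agent other than water uptake distinguishes the stages in the labels. Each stage had 3 biological replicates. The labels name whole seed as the tissue whereas the protocol names embryos, so the presence of seed coat is not settled by them. The table lists gene IDs without names, and 0 of its IDs matched the 59048 genes of the reference annotation, so no gene name, function or sequence is given and the tissue could not be checked against marker genes.

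During late maturation a legume embryo stops accumulating storage protein and oil, acquires tolerance of water loss and then dries to a quiescent state. The dry seed keeps a store of messenger RNA from maturation, and after imbibition this store is degraded while transcripts for growth and reserve mobilization are made. Transcripts of the maturation programme are therefore often abundant in drying seeds and scarce in seedlings.

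The level at early and mid desiccation set the choice and is given as a description without a test. The median of the members' stage means was 1099 normalized counts at early desiccation, 984 at mid desiccation, 379 at late desiccation and 274 in dry seed. After imbibition it was 231 (3 h), 120 (16 h) and 47.8 (27 h). Together the members took 1.08% ± 0.539 (SD, n = 3) of the normalized counts at early desiccation and 1.01% ± 0.385 at mid desiccation. Their share was 0.372% ± 0.102 at late desiccation and 0.270% ± 0.0286 in dry seed. At 3 h it was 0.287% ± 0.0851, then 0.181% ± 0.0161 (16 h) and 0.153% ± 0.0303 (27 h). In RNA from a whole seed or a whole embryo, fewer cells of a type and less RNA per cell cannot be told apart.

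A working name for these genes, maturation transcripts cleared during drying, went further than their levels. Relative to each member's mean over early and mid desiccation, the median level left was 33.4% at late desiccation, 23.8% in dry seed and 25.5% at 3 h. It was 11% at 16 h and 6.13% at 27 h. In the dry seed 8 of 100 members were under 10%, against 43 at 16 h and 58 at 27 h, so most members were still present after drying. For the genes within the level limits the same medians were 93.6%, 104%, 102%, 89.3% and 67.9%.

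**Figure D1:**
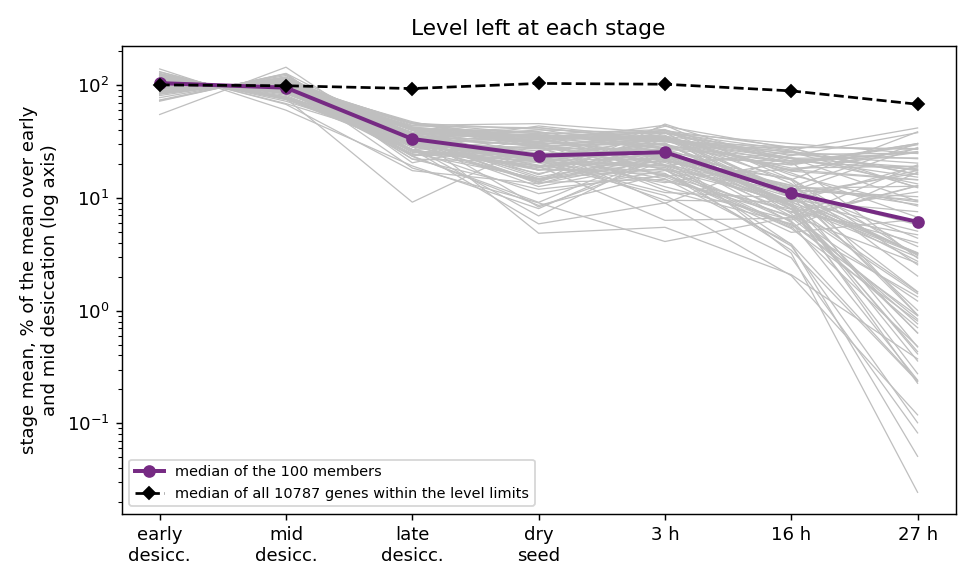
Mean level of each of the 100 members (grey lines) at the 7 stages, as a percent of its mean over early and mid desiccation, on a log axis. The purple line is the members' median, which was 33.4% at late desiccation and 6.13% at 27 h, and the black dashed line is the median of all genes within the level limits.

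As a ratio of highest to lowest, the level left was spread most widely at 27 h. It ranged from 9.18% to 47.5% at late desiccation and from 4.86% to 45.7% in dry seed. After imbibition it ranged from 4.11% to 45.3% (3 h), 2.04% to 30.4% (16 h) and 0.0244% to 41.8% (27 h). The rule limited the upper end at all 5 later stages. At 27 h, 25 members were under 1%, 16 had a mean under 10 normalized counts, and 18 still had a mean of at least 200. The largest fall on the log2 scale between consecutive stages was from mid to late desiccation in 54 members and from 16 h to 27 h in 36. The rule required a lower mean at late than at mid desiccation in every member, so these counts only describe them. The highest of the 5 later means was at late desiccation in 74 members, at 3 h in 14, in dry seed in 9 and at 27 h in 3.

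The replicates of a stage did not behave alike, and this touches every statement on drying. The median member level was 1506, 1439 and 388 normalized counts in early desiccation replicates 1, 2 and 3, and 1298, 1002 and 697 in those of mid desiccation. It was 285, 229 and 560 at late desiccation and 275, 263 and 232 in dry seed. After imbibition it was 185, 226 and 277 (3 h), 121, 117 and 111 (16 h), and 52.6, 40.0 and 50.2 (27 h). Early desiccation replicate 3 was low and late desiccation replicate 3 was high, so that these stages overlapped, while the replicates at 16 h and at 27 h lay close together.

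**Figure D2:**
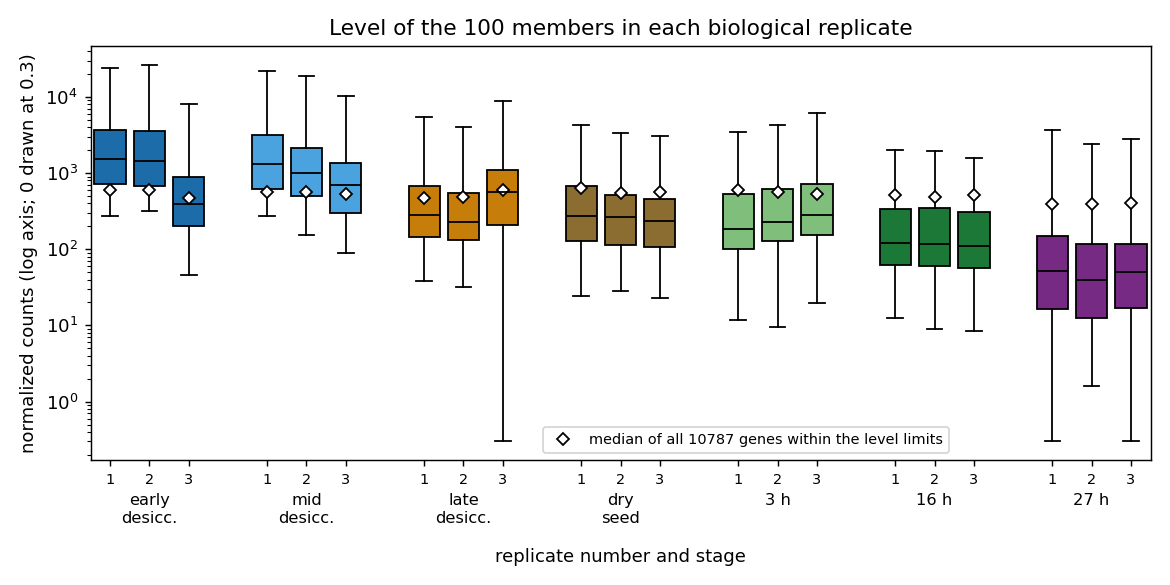
Level of the 100 members in each of the 21 biological replicates on a log axis. Boxes span the quartiles with the median as a line, whiskers reach the lowest and highest member, and white diamonds mark the median of all genes within the level limits. The median of early desiccation replicate 3, at 388, lies below those of the other early and all mid desiccation replicates.

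Early desiccation replicate 3 was the lowest of its stage in 100 of 100 members, against 69.7% of the genes within the level limits. Its level was a median 26.1% of the mean of replicates 1 and 2, against 80.2% for those genes. Late desiccation replicate 3 was the highest of its stage in 89 members, against 71.7%, at a median 190% of the mean of the other 2 replicates. Early desiccation replicate 3 was at or below the highest late desiccation replicate in 81 members, near the 82.9% of the genes within the level limits. All 6 early and mid desiccation replicates lay above all 15 later ones in 15 members. This count was 74 without early desiccation replicate 3 and 87 without this replicate and late desiccation replicate 3. The rule chose the members on this contrast, so these counts only describe them. The share among the genes within the level limits was not computed.

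A set of 8047 genes with a mean under 2 normalized counts at both 16 and 27 h showed the same replicates standing apart. Its mean level was 0.193, 0.170 and 8.97 normalized counts in the 3 early desiccation replicates and 8.60, 6.67 and 0.831 in those of late desiccation. Elsewhere it ranged from 0.303 at 16 h to 4.60 at mid desiccation. The part of these differences in the members' levels was not tested. Late desiccation replicate 3 also rested on 2.53 M reads, where 1 read was worth 8.68 normalized counts, against at least 43.8 M in the other replicates; the members had a median of 64.5 reads in it, and 1 member had 0. With the pair of early desiccation replicate 3 and late desiccation replicate 3 left out, an alternative chosen after seeing the data, the median level left was 22.5% at late desiccation and 20.5% in dry seed. After imbibition it was then 22.2% (3 h), 9.47% (16 h) and 5.24% (27 h).

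The first member by the ratio, 4.63, was Glyma05g01845. It measured 6604, 7571 and 435 normalized counts in the early desiccation replicates, 9800, 5587 and 1807 at mid desiccation, 708, 558 and 1667 at late desiccation and 546, 386 and 507 in dry seed. After imbibition it measured 185, 216 and 253 (3 h), 317, 378 and 384 (16 h) and 1534, 756 and 842 (27 h). Its later course was unlike that of most members, with its lowest mean at 3 h and all 27 h replicates above all 16 h replicates. The log2 change from 16 to 27 h, 1.47 ± 0.83 (SE), did not pass the test (limma, adjusted p = 0.263).

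The second member, Glyma10g31650 (ratio 4.0), measured 551, 554 and 208 normalized counts at early desiccation and 511, 693 and 245 at mid desiccation. Its means were 102 ± 55.3 at late desiccation, 55.0 ± 27.0 in dry seed and 52.1 ± 11.9 at 27 h (SD, n = 3 each). It was thus low from late desiccation on, with 11.3% left at 27 h.

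The third to eighth members, Glyma13g33290, Glyma09g36941, Glyma08g18340, Glyma09g06840, Glyma13g19560 and Glyma06g17080, had ratios from 3.86 down to 3.37. Glyma09g06840 was the most abundant of them, with 9381, 8536 and 2182 normalized counts at early desiccation and 7550, 4962 and 3470 at mid desiccation. It kept 24.3% of this level at late desiccation and 21.5% in dry seed, then 3.74% at 16 h and 0.101% at 27 h, where its replicates measured 5.96, 7.70 and 4.55. The level left at 27 h was 0.481% for Glyma13g33290, 0.808% for Glyma09g36941, 4.0% for Glyma08g18340, 0.119% for Glyma13g19560 and 0.840% for Glyma06g17080. Glyma11g21110 (ratio 3.26) and Glyma05g25711 (ratio 3.21) closed the first 10, with 3.23% and 5.07% left at 27 h.

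The most abundant member was Glyma12g35450. It measured 23592, 26378 and 8042 normalized counts at early desiccation, 21774, 14661 and 10356 at mid desiccation, 4355, 4067 and 7378 at late desiccation and 3348, 2648 and 2642 in dry seed. At 3, 16 and 27 h the replicates measured 3429, 4242 and 6166, then 1490, 1466 and 1221, then 53.1, 21.0 and 70.0. Each early and mid desiccation replicate was above each later one, and 0.275% of the early and mid desiccation mean was left at 27 h.

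The next 3 members by abundance were also low at 27 h, but their early and late desiccation replicates overlapped. Early desiccation replicate 3 measured 2763 in Glyma08g09310, 4476 in Glyma05g38251 and 3036 in Glyma05g32491. Late desiccation replicate 3 measured 8854, 6449 and 3507 in that order. Glyma08g09310 averaged 16111 ± 11560 normalized counts at early desiccation and 13753 ± 5646 at mid desiccation, and 0.0821% was left at 27 h. Glyma05g38251 averaged 9334 ± 4213 and 9485 ± 2355, with 0.357% left at 27 h. Glyma05g32491 averaged 10720 ± 6655 and 6850 ± 3728, with 0.432% left at 27 h.

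The remaining one, Glyma09g22306, averaged 7332 ± 3288 and 8271 ± 3477 normalized counts at early and mid desiccation. After imbibition its mean was lower at 16 h than at 3 h and higher again at 27 h. It measured 4269, 3404 and 3030 in dry seed, 2545, 2785 and 3459 (3 h), 2030, 1945 and 1579 (16 h) and 3698, 2416 and 2778 (27 h). All 27 h replicates were above all 16 h replicates, with a log2 change of 0.66 that did not pass the test (limma, adjusted p = 0.268), and 38.0% of its early and mid desiccation mean was left at 27 h.

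**Figure D3:**
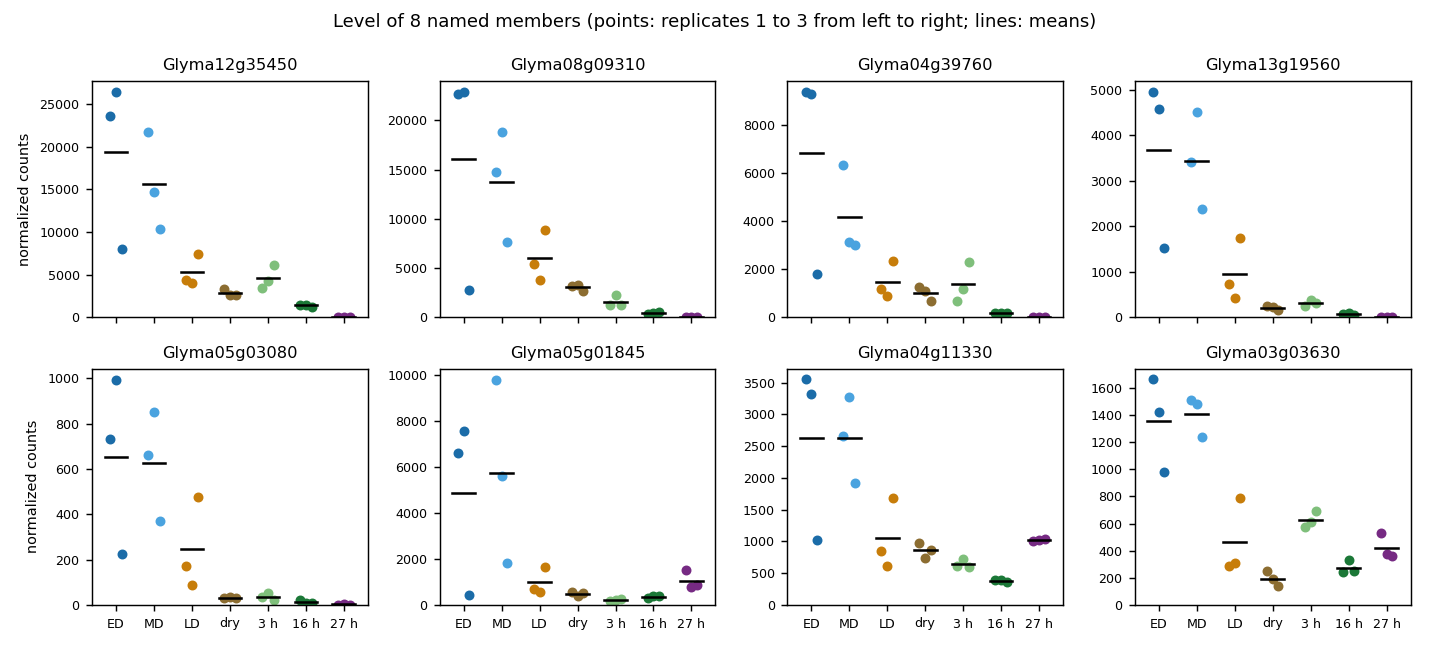
Normalized counts of 8 members in every replicate (points, replicates 1 to 3 from left to right) with stage means (lines), on linear axes that start at 0. ED, MD and LD are early, mid and late desiccation, dry is the dry seed, and hours are after imbibition. Glyma12g35450 falls to 48.1 at 27 h, whereas Glyma04g11330 averages 381 at 16 h and 1016 at 27 h.

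At the end of the list, Glyma08g20820 ranked 99 with a ratio of 2.03 and Glyma06g14601 ranked 100 with 2.03. The first genes left out were Glyma02g07430 with 2.03 and Glyma13g19460 with 2.02. Glyma02g07430 averaged 4718 and 4004 normalized counts at early and mid desiccation and at most 1972 at a later stage, so levels just outside the threshold were like those just inside. The rule itself depended on the replicates: reapplied without the pair of replicates above it kept 71 of the members, and without mid desiccation replicate 1 it kept 66.

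Comparisons among stages on the same side of the rule did not themselves choose the members, although the rule bounded all their levels. Dividing by the highest later mean disfavoured genes that rose at any later stage. The genes within the level limits and all genes tested had no such bound. Low counts of members that rose between later stages were therefore favoured by the rule, and their distance from the background shares cannot be read as a result. Ranking on the lower of the early and mid desiccation means also disfavoured genes with a large difference between these means. The comparisons were tested with limma on log2(normalized count + 1) over 46537 genes. The call required a change of 2-fold or more with an adjusted p under 0.05 (Benjamini-Hochberg). All 100 members passed the filter on low values, since their early and mid desiccation levels placed them above it. The p-values measure the spread between the labelled biological replicates. Changes in log2 are given with their SE.

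Between mid and early desiccation 0 members were called in either direction, a count that the rule itself favoured. Of all genes tested, 0.0494% were called higher at mid desiccation and 0% lower. 1 of the 100 members had an unadjusted p under 0.05 (limma), edgeR and DESeq2 likewise called 0 members, and the members' median log2 change was 0.00, against 0.40 over all genes tested and -0.01 over the genes within the level limits. The comparison turned on early desiccation replicate 3. Without it, 12 members were called lower at mid desiccation and 0 higher. Of all genes tested, 0.627% were then called lower and 19.4% higher, so this library moved the whole comparison. The members' median was then -0.63, against 0.71 over all genes tested. With all replicates 64 members had a higher mean at early than at mid desiccation, and with replicates 1 and 2 alone 88 had, against 63.8% of the genes within the level limits.

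Between late desiccation and dry seed 6 members fell and 0 rose. Of all genes tested 2.55% fell and 1.49% rose, and of the genes within the level limits 3.45% fell. The members' median log2 change was -0.36, against -0.37 over all genes tested and 0.17 over the genes within the level limits. With late desiccation replicate 3 included, the dry seed mean was below the late desiccation mean in 90 members. The share of the genes within the level limits was 38.1%. In the other direction, Glyma13g37731, named after its values were seen, measured 165, 91.3 and 0 normalized counts at late desiccation and 324, 254 and 288 in dry seed, and did not pass the test (limma, adjusted p = 0.122). Among called members the fall was largest for Glyma05g03080, which measured 171, 88.5 and 477 normalized counts at late desiccation and 29.0, 33.7 and 30.7 in dry seed. Its replicates did not overlap, and its log2 change was -2.60 ± 0.67 (limma, adjusted p = 0.0164). Glyma13g19560 measured 725, 430 and 1736 at late desiccation and 252, 218 and 160 in dry seed, a log2 change of -1.98 ± 0.48 (limma, adjusted p = 0.0137). Both calls depended on which replicates entered the fit. Without late desiccation replicate 3 alone, the members' median was -0.10, against -0.96 over all genes tested. In that fit 0 members were called, against 5.59% of all genes tested. Glyma05g03080 then changed by -1.95 and Glyma13g19560 by -1.43. With early desiccation replicate 3 also left out these changes were the same and both genes were called again. They were among 8 members called, 7 lower and 1 higher in dry seed. Of all genes tested 20.4% were then called and 18.1% were called lower, so the members' share called lower was under that of all genes. With TMM scaling in place of the deposited scaling 0 members were called, against 7.62% of all genes tested. The members' median was then 0.14, so the direction of the members as a group between these stages changes sign with the scaling.

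From dry seed to 3 h after imbibition 2 members rose and 0 fell, against 2.09% of all genes tested that rose and 1.31% that fell. The share of members that rose was thus near the background, although the rule disfavoured rises. Glyma03g03630 measured 247, 192 and 143 normalized counts in dry seed and 576, 614 and 693 at 3 h. Its replicates did not overlap, and the log2 change was 1.72 ± 0.29 (limma, adjusted p = 0.0013). Glyma18g07726 measured 62.0, 59.4 and 46.4 in dry seed and 188, 234 and 183 at 3 h, a log2 change of 1.84 ± 0.43 (limma, adjusted p = 0.0118). Glyma18g07726 fell again, to a mean of 64.7 ± 36.3 at 16 h and 5.13 ± 2.50 at 27 h, whereas Glyma03g03630 averaged 274 ± 46.7 at 16 h and 421 ± 92.5 at 27 h. The call of Glyma18g07726 was lost without dry seed replicate 3 or without 3 h replicate 2, where 1 member was called in each case.

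Between 3 and 16 h 33 members fell and 0 rose. Of all genes tested 2.27% fell and 4.77% rose, and of the genes within the level limits 7.19% fell. The members' median log2 change was -1.05, against -0.33 over all genes tested and -0.24 over the genes within the level limits. The largest fall was that of Glyma04g39760, which measured 677, 1182 and 2284 normalized counts at 3 h and 174, 187 and 172 at 16 h. Its log2 change was -2.78 ± 0.62 (limma, adjusted p = 0.00551). Glyma03g33810 followed, with 168, 223 and 298 at 3 h and 46.3, 45.1 and 30.8 at 16 h, a log2 change of -2.45 ± 0.51 (limma, adjusted p = 0.00257). In both the replicates of the stages did not overlap. The number called was 18 without 16 h replicate 3 or without 3 h replicate 3, and 19 without 16 h replicate 2 or without 3 h replicate 2. Of all genes tested 4.745% to 6.054% were called in these fits, against 7.04% in the main fit. At 3 h, replicate 3 was the highest in 74 members, against 26.1% of the genes within the level limits.

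**Figure D4:**
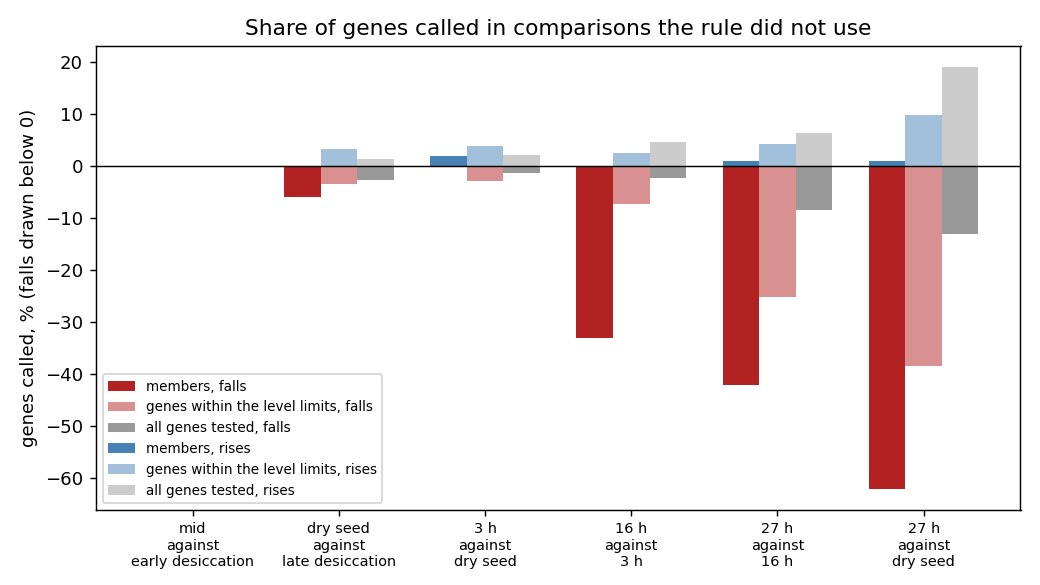
Percent of genes called in each comparison, with rises above 0 and falls below, for the 100 members, the genes within the level limits and all genes tested. Of the members 33% fell between 3 and 16 h, against 7.19% of the genes within the level limits and 2.27% of all genes tested.

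Between 16 and 27 h 42 members fell and 1 rose, against 8.35% of all genes tested that fell and 6.45% that rose. Falls were also frequent among the genes within the level limits, of which 25.2% fell. The members' median log2 change was -1.13, against 0.41 over all genes tested and -0.35 over the genes within the level limits. Glyma04g39760 fell from the 16 h values above to 0, 3.53 and 0.485 normalized counts at 27 h, which were 0, 14 and 2 reads. Its log2 change was -6.56 ± 0.62 (limma, adjusted p = 2.41e-07), on a scale that understates changes to so low a level. These values were near the 0.572, 1.22 and 0.357 of the genes with a mean under 2. Glyma08g09310 measured 309, 488 and 525 at 16 h and 7.31, 7.38 and 22.1 at 27 h, a log2 change of -5.20 ± 0.63 (limma, adjusted p = 5.95e-06).

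The rise was that of Glyma04g11330. It measured 388, 398 and 358 normalized counts at 16 h and 999.5, 1015 and 1034 at 27 h, and its log2 change was 1.41 ± 0.36 (limma, adjusted p = 0.00706). Its replicates lay within a narrow range at each of these stages and did not overlap, and the 27 h level was above its dry seed mean of 858 ± 113. In all, 25 members had a higher mean at 27 than at 16 h, of which Glyma18g25845, named after its values were seen, had the largest ratio, 3.11, at means of 13.4 and 41.5 (limma, adjusted p = 0.0663).

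Over the whole of imbibition, 27 h against dry seed, 62 members fell and 1 rose. Of all genes tested 13.1% fell and 19.1% rose, and of the genes within the level limits 38.4% fell. The members' median log2 change was -1.82, against 0.12 over all genes tested and -0.64 over the genes within the level limits. Glyma04g39760 measured 1252, 1113 and 699 normalized counts in dry seed, and its log2 change to 27 h was -9.04 ± 0.62 (limma, adjusted p = 1.08e-09). Glyma08g09310 measured 3187, 3281 and 2698 in dry seed, with a log2 change of -8.02 ± 0.63 (limma, adjusted p = 8.79e-09). Glyma03g03630, the member that rose, measured 527, 378 and 358 at 27 h, a log2 change of 1.13 ± 0.29 (limma, adjusted p = 0.00363). This call was lost without dry seed replicate 3, at 0.93, and without 27 h replicate 1, at 0.96, where the change was under 2-fold. This comparison and the one of 27 with 16 h share the 27 h samples, as those of 3 h and of 27 h with dry seed share the dry seed.

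Across the 5 later stages together, 70 members changed (limma F test with a range of at least 2-fold between stage means), against 35.5% of all genes tested and 61.3% of the genes within the level limits. The members' share was thus not far above that of genes with a like early and mid desiccation level. The lowest of the 7 stage means was at 27 h in 72 members, against 52.7% of the genes within the level limits.

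By the chromosome number in their IDs, the members lay on 18 of 20 chromosomes. Chromosome 13 held 12 members, chromosome 18 held 11 and chromosome 8 held 10, where 5.78%, 4.49% and 7.52% of the genes within the level limits lay. Chromosomes 1 and 15 held 0 members, with 4.03% and 4.90% of those genes.

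The closest members in ID order were on chromosome 6, where a run of 16 IDs from Glyma06g45280 to Glyma06g45430 held 4. These were Glyma06g45280, Glyma06g45381, Glyma06g45410 and Glyma06g45420, at ranks 78, 39, 81 and 90, with 0 IDs between the last pair. Each had a higher mean at mid than at early desiccation. Glyma06g45280 averaged 5385 ± 3265 and 7892 ± 3625 normalized counts at these stages, Glyma06g45381 4476 ± 3441 and 7597 ± 5679, Glyma06g45410 3407 ± 2281 and 5891 ± 3324, and Glyma06g45420 3273 ± 2006 and 5776 ± 2706. The mid desiccation value was above the early one of the same replicate number in 3 of 3 pairs for Glyma06g45280, Glyma06g45410 and Glyma06g45420 and in 2 of 3 for Glyma06g45381. With the replicate block the log2 changes were 0.67 ± 0.54, 1.03 ± 0.63, 0.94 ± 0.61 and 1.17 ± 0.96 in that order, and none passed the test (limma, adjusted p from 0.655 to 0.656).

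These 4 neighbours differed in the level left already in dry seed. It was 8.33% for Glyma06g45280, 14.9% for Glyma06g45420, 28.8% for Glyma06g45381 and 34.3% for Glyma06g45410. At 27 h Glyma06g45420 had 1.47% of its early and mid desiccation mean left, Glyma06g45280 3.08%, Glyma06g45410 9.39% and Glyma06g45381 25%. Glyma06g45381 measured 298, 628 and 697 normalized counts at 3 h, below its 1569, 1246 and 1712 at 27 h in every replicate. Other genes of the run had other courses. Glyma06g45370, which is no member, averaged 463 ± 463 at early desiccation, 2330 ± 1353 at mid desiccation and 2637 ± 1529 at 27 h. The strand used in counting is not given in the sources used here, so reads of adjacent or overlapping genes and of near-identical copies could not be separated.

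**Figure D5:**
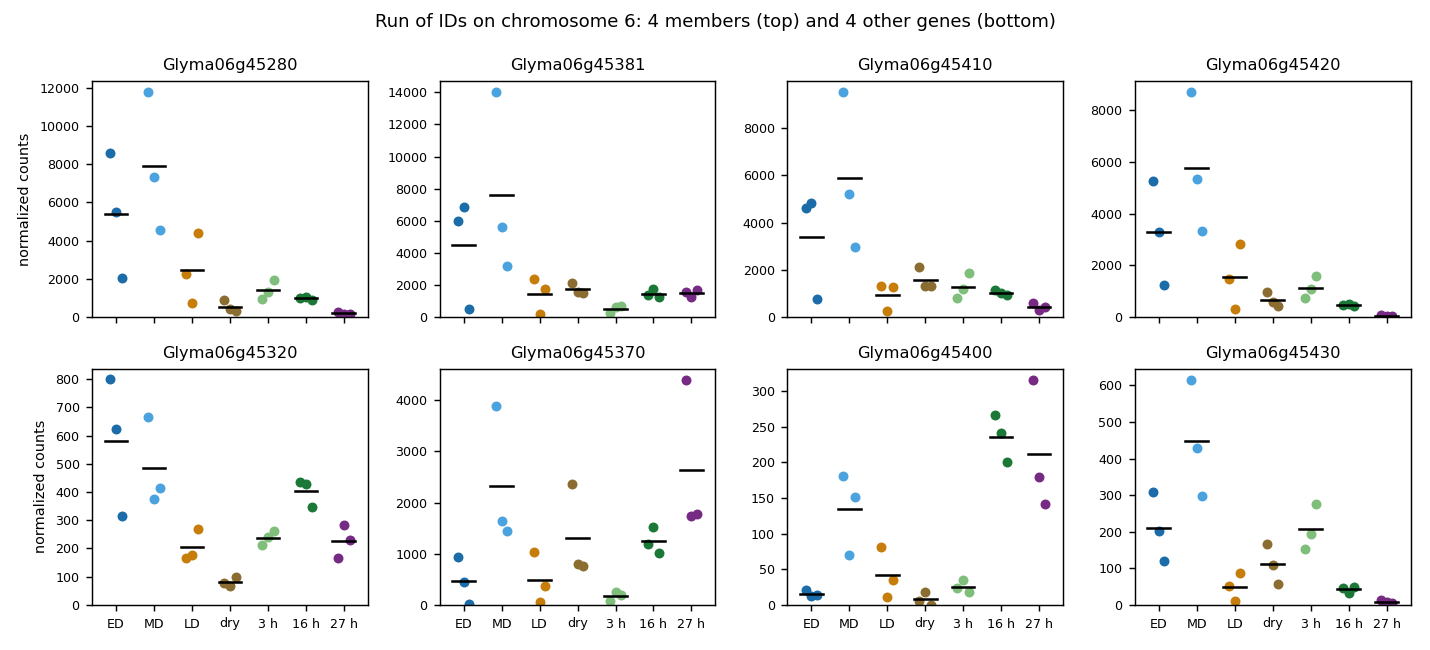
Normalized counts in every replicate (points, replicates 1 to 3 from left to right) with stage means (lines) for the 4 members of the chromosome 6 run (top) and 4 other genes of the run (bottom), with stages abbreviated as ED, MD and LD for early, mid and late desiccation. The members have high early and mid desiccation values, whereas Glyma06g45370 averages 2637 at 27 h.

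Of the other close members, Glyma18g07726 and Glyma18g07774 had 2 IDs between them, and Glyma13g21970 and Glyma13g22061 had 6. Glyma18g07774 averaged 445 ± 269 normalized counts at early and 228 ± 41.3 at mid desiccation, and 4.40% was left at 27 h, against 0.635% for Glyma18g07726. Glyma13g21970 kept 16.6% and Glyma13g22061 2.74%. Close members therefore differed in the level left at 27 h in each of these pairs.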

How the data were processed

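Total RNA from 7 seed stages was sequenced as Illumina libraries, with 3 biological replicates per stage in 2 or 3 runs each, per the labels. Trimmomatic 0.38 and HISAT2 were used, per the submitters' processing notes; no counting tool, genome build or annotation is given in the sources used here. The deposited values are a signal per gene and library, read counts divided by a size factor per library, per the normalization named in the title the authors gave the table. Dividing each library by what 1 read was worth gave integers in at least 99.996% of values (tolerance 0.001 reads), and these recovered reads went into edgeR and DESeq2. Of 46 labelled samples, 45 had a column. The table's 1 other column matched no sample and was not used, so late desiccation replicate 3 rests on 1 run.

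Runs were averaged to 21 biological replicates; runs of a replicate differed in the members' summed level by 2.46% to 31.4%. Genes that reached 10 normalized counts in 3 or more replicates entered the test, limma 3.58.1 (R 4.3.3) of log2(value + 1) with stage as the factor, trended variance, robust moderation and Benjamini-Hochberg adjustment over all genes tested. The steps were tested on simulated data. Alternatives used edgeR 4.0.16, DESeq2 1.42.0, TMM scaling, a pseudocount of 5, no filter, run 1 alone, the compared stages alone, a replicate block, and each replicate left out. The members, lists and tests were chosen with earlier results of these data known. Genes named were the first 10 by the ratio, the 5 most abundant, those next to the threshold, the 2 largest rises and falls among called members in each comparison, and the members nearest in ID order (at most 3 runs).

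Same-numbered replicates deviated together between early and mid desiccation (correlations 0.125, 0.362 and 0.514). The main fit used no pairing. Pairing entered only through the replicate block, as an alternative fit and for the chromosome 6 members. In the other comparisons at least 1 correlation was under 0.1, and the main fit assumed no pairing there either. The lowest correlation for 3 h against dry seed was 0.091, near the 0.125 above, so these values settle pairing in neither case. With the replicate block 0 members were called between early and mid desiccation, as without it, against 0.0645% of all genes tested.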

Additional observations from a re-analysis of the deposited data

How the results depend on the processing

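Of the counts of members called, those for 27 h against 16 h, 27 h against dry seed and the 5 later stages stayed within 1.5 times of 43, 63 and 70 under every alternative run. Of all genes tested 14.8%, 32.2% and 35.5% were called in the main fit. These shares reached 39.0%, 46.9% and 77.2% in alternatives. Shares in brackets below are those of all genes tested that were called in the same fit. For mid against early desiccation the count was 17 without early and late desiccation replicate 3 (37.6%). It was 16 when dry seed replicate 1 was also left out (42.85%). In both fits every member called was lower at mid desiccation, whereas most of all genes called were higher there. With single replicates left out the count was from 0 to 12. For dry seed against late desiccation it was 0 with TMM scaling (7.62%), 1 with edgeR (6.84%) and 11 with run 1 alone (4.43%). With single replicates left out it was 0 to 7. The main fit called 6 members (4.04%). For 3 h against dry seed it was 7 with run 1 alone (4.82%), 16 with the compared stages alone (5.03%) and 4 with DESeq2 (4.46%). It was 13 without the pair of replicates (6.285%) and 11 when dry seed replicate 1 was also left out (6.38%). With single replicates left out it was 1 to 2. The main fit called 2 members (3.40%). For 16 h against 3 h it was 54 with the compared stages alone (20.8%) and 50 without the pair (15.3%). It was 50 without the pair and dry seed replicate 1 (26.7%), and 18 to 29 with single replicates left out. The main fit called 33 members (7.04%), so the share of all genes called also rose where the count rose. The members' median log2 change for 16 h against 3 h was -1.05 in the main fit, with the compared stages alone and without the pair. The cause of these differences in count was not tested. Under TMM scaling the all-gene median log2 change shifted by 0.37 for mid against early desiccation, 0.33 for dry seed against late desiccation, 0.21 for 3 h against dry seed and 0.20 for 27 h against dry seed.

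The replicate block gave 7 members called for dry seed against late desiccation (3.85% of all genes tested) and 2 for 3 h against dry seed (3.31%). It gave 32 for 16 h against 3 h (6.89%) and 43 for 27 h against 16 h (14.4%). For 27 h against dry seed it gave 62 (31.5%), and over the later stages 70 (34.6%). Of the log2 changes of named genes, 180 kept their call, 12 lost it and 0 reversed. Of the summed and median member levels, 16 stayed within the replicate spread and 5 moved beyond it. The rule applied again kept 65 members with the median of replicates, 66 without mid desiccation replicate 1, and 70 or more under the other 25 settings. Over all genes, edgeR on the recovered reads called 77 for mid against early desiccation (limma 23), 3182 for dry seed against late desiccation (limma 1879) and 13984 for 27 h against dry seed (limma 14992). Low levels in late desiccation replicate 3 are limited by its depth.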
